A study of Mus musculus with 9 samples.

Results

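The genes described here are 39 genes of fatty acid uptake, fatty acid oxidation and ketone use in the paraventricular nucleus of the hypothalamus (PVN). They were chosen by name from the pathway, without the use of their levels, and all 39 were found among the 27179 genes of the count table. A filter on low counts left 38 of them among 17344 tested genes. The gene it removed was Cpt1b, with at most 5 counts in any library. PVN tissue punches from 9 wild type male C57BL/6 mice (C57BL/6J in the study's methods) were sequenced as bulk RNA, with 3 mice to a group. The Control group was fed the study's control diet, which the sample titles call chow. The HFD group and the HFD+Mino group received a diet that drew 60% of its energy from fat, and feeding lasted 12 weeks from the age of 5 weeks. HFD+Mino mice also drank minocycline, a tetracycline antibiotic with anti-inflammatory action, at 40 mg/kg/day during the last 6 weeks, while the other groups drank tap water. No group received minocycline on chow, so the drug was seen only together with the diet. The sample labels give an age of 35 days for all mice, which is the age at which the diets began and not the age at tissue collection.

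Fatty acids enter a cell with the help of transport proteins and are joined to coenzyme A by acyl-CoA synthetases. The carnitine shuttle carries the acyl group into the mitochondrion, where beta-oxidation shortens the chain step by step and passes electrons through the electron transfer flavoprotein to the respiratory chain. Peroxisomes shorten very long and branched chains. PPAR nuclear receptors switch on many of these genes in liver, muscle and fat. The brain runs mainly on glucose and takes up ketone bodies when they are plentiful. Within the hypothalamus, fatty acid handling takes part in nutrient sensing, and most oxidation in brain takes place in astrocytes.

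The smallest library, HFD replicate 1, held 17728590 counts and the largest, Control replicate 1, held 42326213. The 39 genes took between 0.206% and 0.289% of a library's counts. Levels are given as CPM, the counts of a gene scaled to a common library size, with TMM factors, which set the bulk of genes level between libraries. The libraries did not all show the PVN to the same degree. In Control replicate 1, Avp and Oxt, the hormones of magnocellular PVN neurons, stood at 0.149 and 0.770 CPM. In the other 8 libraries Avp ran from 157 to 28049 CPM and Oxt from 427 to 8907 CPM. Trh was at 5.49 CPM in Control replicate 1 against 260 to 852, and Sim1 at 0.770 against 2.51 to 35.7. Crh, at 20.6 CPM, lay inside the range of the others (14.4 to 153), and Sst was at 102 against 137 to 703. Otp, a transcription factor of these neurons, was at 0 in Control replicate 1 but low in the others as well, at 0.371 to 2.77 CPM. The same library held the most oligodendrocyte RNA, so that 8 markers summed to 3839 to 29969 CPM in Control, 2729 to 7021 in HFD and 2344 to 6062 in HFD+Mino. Without Control replicate 1, the members called below were the same, 0 between HFD and Control and Acsl4 between HFD+Mino and HFD. HFD+Mino replicate 3 differed from replicates 1 and 2 of its group, with Avp at 1218 CPM against 28049 and 22180 CPM. For Avp and Oxt, replicates 1 and 2 were the ones outside the range of all other libraries. Outside these 2 libraries the highest Avp was 1984 CPM and the highest Oxt 1409 CPM, both in HFD replicate 3. Their TMM factors were 0.837 and 0.879, against 1.06 in HFD+Mino replicate 3. Fits without HFD+Mino replicate 3 keep only replicates 1 and 2 of that group. Counts of the ribosomal precursor Rn45s took 0.350% to 0.430% of the HFD libraries and at most 0.113% of the others. HFD+Mino replicate 3 was the library of its group closest to the HFD mean in 24 of 38 tested members, a share of 63.2%, and in 57.6% of all tested genes. In tissue punches, fewer cells of a type and less RNA per cell cannot be told apart.

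In chow-fed mice the members differed widely in level. Per kilobase of exon, which allows genes to be compared, the highest was Etfb, which encodes the beta subunit of the electron transfer flavoprotein, at 130 ± 30.7 CPM per kb (SD, n = 3). Etfa, the alpha subunit, followed at 83.2 ± 23.3 CPM per kb, then Acsl3 at 81.5 ± 2.51, Oxct1 at 66.7 ± 13.4 and Echs1 at 66.3 ± 22.2 CPM per kb. The order from Etfa to Echs1 lay within the spread of their mice. The PPAR receptors were at the other end, with Ppara at 0.512 ± 0.0773, Pparg at 0.337 ± 0.136 and Ppard at 0.282 ± 0.0937 CPM per kb. Much of the exon length of Etfb, 617 of 893 nt, is shared on the same strand with the annotated gene Gm45233, and whether reads were counted by strand or shared between genes is not given in the sources used here. The genes of each step did not stand at 1 level, since the beta-oxidation enzymes alone ran from Acads, at 3.83 CPM per kb, to Echs1.

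**Figure D1:**
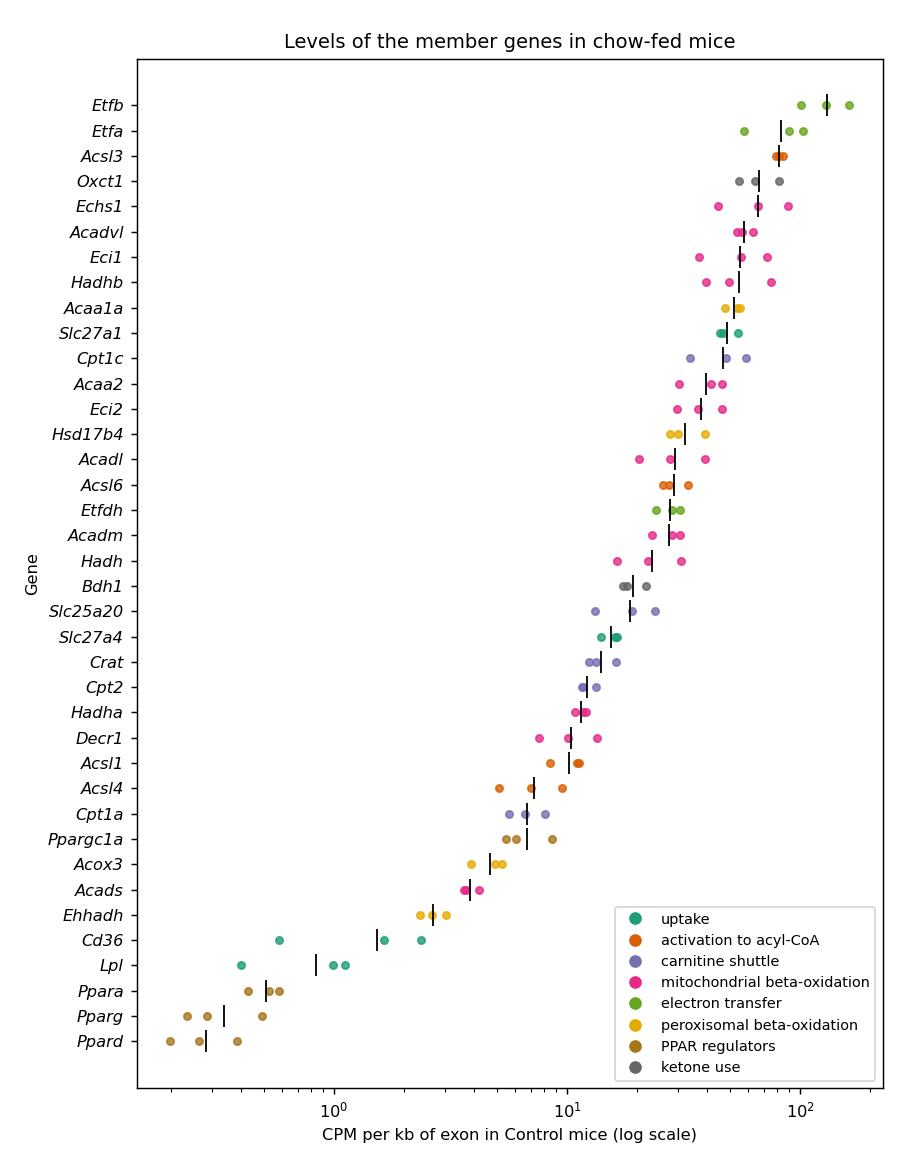
Level of each tested member gene in the 3 Control mice, in CPM per kilobase of exon on a log axis; each point is a mouse, the bar is the mean, and the colour gives the role of the gene. Etfb is highest at a mean of 130 CPM per kb, and the 3 PPAR receptors lie lowest, between 0.282 and 0.512 CPM per kb.

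Between HFD and Control mice, a comparison that asks for the effect of the diet, 0 of the 38 tested members passed the thresholds of an FDR under 0.01 and a 1.5-fold difference. Of all tested genes 1.74% did (0.317% higher, 1.42% lower). The test was the quasi-likelihood test of edgeR, adjusted after Benjamini and Hochberg, as for every adjusted p given here unless DESeq2 is named. An unadjusted p under 0.05 was reached by 5 members, Acsl4, Ppara, Pparg, Ppargc1a and Bdh1, where 20.5% of all tested genes reached it, and DESeq2 called 1, Acsl4 (6.91% of all tested genes). At an FDR under 0.05 with no fold threshold Acsl4 alone passed, as a higher gene, with 2.57% of all tested genes higher and 3.21% lower. Most members were close to their Control level: 31 of 38, or 81.6%, had a fitted difference within 1.5-fold, against 62.2% of all tested genes, and for 23 the 95% interval lay within 2-fold. The median half-width of the 95% interval was 0.60 on the log2 scale for members and 0.77 for all tested genes. The part of this precision in the higher share was not tested. The fitted level was above Control in 15 members and below in 23, where 50.3% of all tested genes were above, and the median difference was -0.17 on the log2 scale. The replicate numbers of Control and HFD+Mino were also fitted as a block, a pairing taken from the counts alone and given by no label. The block was chosen from the same counts it was fitted to, so its calls in every comparison are no independent check. This block called 1 member, Acsl4 (log2 fold change 1.25, adjusted p = 0.00295), with 6.22% of all tested genes. Without HFD+Mino replicate 3, and with no block, 0 members and 3.08% of all tested genes were called.

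Between HFD+Mino and HFD mice, a comparison that asks what minocycline changed on the diet, 1 of 38 members was called, where 4.15% of all tested genes were (1.98% higher, 2.16% lower): Acsl4 fell in HFD+Mino. At an FDR under 0.05 with no fold threshold there were 8 members, against 27.5% of all tested genes (14.6% higher, 12.9% lower). Of these, Etfb, Eci1 and Eci2 were higher in HFD+Mino, and Acsl3, Acsl4, Acsl6, Cpt1a and Ppara were lower. The median member differed by -0.07 on the log2 scale and 19 members lay on each side of 0, where 50.3% of all tested genes were above it. Within 1.5-fold were 21 members, or 55.3%, and 41.9% of all tested genes. The block in Control and HFD+Mino called 8 members, Acsl3, Acsl4, Acsl6 and Cpt1a lower and Echs1, Eci1, Eci2 and Etfb higher, with 25.6% of all tested genes. Without HFD+Mino replicate 3, with 21.4% of all tested genes called, there were 10 members, 2 higher (Eci2 and Etfb) and 8 lower (Slc27a1, Acsl1, Acsl3, Acsl4, Acsl6, Cpt1a, Crat and Ehhadh).

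Between HFD+Mino and Control mice 0 members and 0 of all tested genes passed, while 11 members and 3697 genes (21.3%) had an unadjusted p under 0.05 with edgeR and DESeq2 called 1 member, Ppargc1a, lower (276 genes, 1.59%). The fitted level was above Control in 14 members, and in 48.8% of all tested genes. The block called Cpt1a lower (log2 fold change -1.10, adjusted p = 0.00969), with 3.18% of all tested genes. Without HFD+Mino replicate 3 there were 5 calls, with 6.28% of all tested genes, Etfb higher and Acsl3, Acsl6, Cpt1a and Ehhadh lower. In the 3-way test over all groups, 0 members were called with HFD as the highest or lowest group, against 2.13% of all tested genes (0.917% with HFD highest, 1.21% with HFD lowest). An unadjusted p under 0.05 was reached by 15 members (39.5%) and by 6762 of all tested genes (39%), and DESeq2 called Acsl4, Etfb and Ppara, with 13.6% of all tested genes. Acsl4 came closest, with an adjusted p of 0.0118, and it was called under the block, with 13.2% of all tested genes. Without HFD+Mino replicate 3 Acsl4, Cpt1a and Etfb were called, with 13.4% of all tested genes. These comparisons share the HFD or the Control mice, so their values are not independent of each other.

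**Figure D2:**
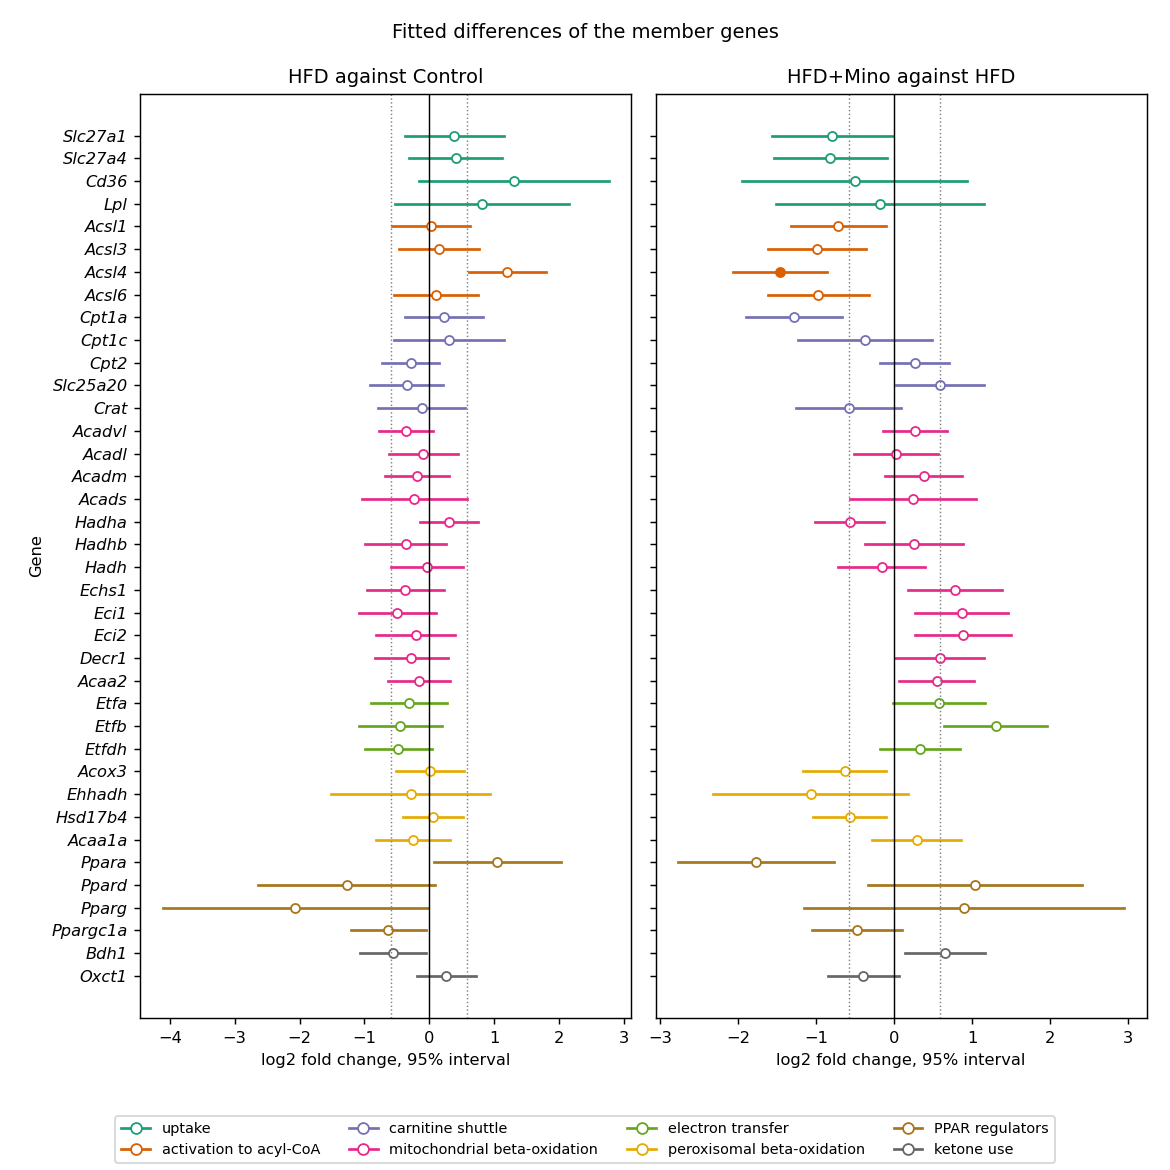
Fitted log2 fold change of the 38 tested members with its 95% interval, for HFD against Control and for HFD+Mino against HFD; dotted lines mark 1.5-fold, the colour gives the role and a filled point is a call. The filled point is Acsl4 in HFD+Mino against HFD, at -1.46, and 31 of 38 points lie between the dotted lines in HFD against Control.

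Activation to acyl-CoA held the member that was called between HFD+Mino and HFD. Acsl4 encodes the synthetase that prefers arachidonic acid and other polyunsaturated fatty acids, which it feeds into membrane phospholipids, and it lies on chrX:142317993-142390802 (GRCm38.p6). Its level was 27.0, 37.0 and 50.05 CPM in Control, 72.3, 86.7 and 104 CPM in HFD, and 24.9, 35.7 and 34.6 CPM in HFD+Mino. Every HFD mouse stood above all mice of both other groups, and the Control and HFD+Mino mice overlapped. Acsl4 fell in HFD+Mino, 2.76-fold below HFD (log2 fold change -1.46 ± 0.27 SE, adjusted p = 0.00815). In HFD it stood at 2.31-fold of Control (log2 1.20 ± 0.27 SE, adjusted p = 0.0267), which did not pass the threshold of 0.01. The difference between HFD+Mino and Control was -0.26, with a 95% interval from -0.85 to 0.33. The call of Acsl4 between HFD+Mino and HFD was lost without Control replicate 2, without any of the 3 HFD mice, and without HFD+Mino replicate 1 or 2, with log2 fold changes from -1.59 to -1.32 over the 9 fits that each left out a sample.

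Acsl3 and Acsl6, synthetases that are abundant in brain, did not follow the same course between HFD and Control. Acsl3, which activates fatty acids at the endoplasmic reticulum and lipid droplets, was at 320, 313 and 332 CPM in Control, 317, 368 and 386 CPM in HFD, and 126, 140 and 274 CPM in HFD+Mino. The 6 Control and HFD mice lay together, and all 3 HFD+Mino mice lay below them (log2 fold change -0.99 ± 0.28 SE against HFD, adjusted p = 0.0280). Acsl6, which serves the neuronal enrichment of docosahexaenoic acid, was at 208, 173 and 162 CPM in Control, 171, 205 and 206 CPM in HFD, and 94.7, 58.4 and 144 CPM in HFD+Mino. Again HFD+Mino was lowest without overlap (-0.97 ± 0.30, adjusted p = 0.0333). Acsl1, the main synthetase of fat and muscle, had levels of 34.6 to 46.0 CPM in Control, 40.5 to 45.7 in HFD and 16.9 to 36.8 in HFD+Mino (-0.72 ± 0.28, adjusted p = 0.0765). All 4 synthetases were thus lower in every HFD+Mino mouse than in any HFD mouse, an order that 23.5% of all tested genes showed. Summed over the 4 genes, the mean CPM was 583 ± 22.4 (SD, n = 3) for Control mice, 682 ± 72.2 for HFD mice and 337 ± 132 for HFD+Mino mice.

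The stretches before the starts of Acsl4, Acsl3 and Acsl6 and of Cpt1a, the members of the activation and carnitine steps with the lowest adjusted p between HFD+Mino and HFD, are shown because these 4 genes differed in the same direction. Each run is the 250 bases before an annotated start (RefSeq, GRCm38.p6), 5′ to 3′ on the strand of the gene. Capitals mark the GC box GGGGCGGGG, a motif bound by Sp proteins, and in Acsl6 the half-site of estrogen-related receptors, TNAAGGTCA. Both strands were searched. Acsl6 has 3 annotated windows, of which the one with the half-site is shown, and the other 3 genes have 1 each. The Acsl4 run is chrX:142390536-142390785 (minus strand), the Acsl3 run chr1:78657575-78657824 (plus strand), the Cpt1a run chr19:3323051-3323300 (plus strand) and the Acsl6 run chr11:54303574-54303823 (plus strand).
Acsl4: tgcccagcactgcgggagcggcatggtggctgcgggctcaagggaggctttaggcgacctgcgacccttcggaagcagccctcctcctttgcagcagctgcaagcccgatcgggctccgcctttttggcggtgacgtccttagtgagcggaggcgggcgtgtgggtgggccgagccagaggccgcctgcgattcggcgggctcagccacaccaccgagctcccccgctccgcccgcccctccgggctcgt
Acsl3: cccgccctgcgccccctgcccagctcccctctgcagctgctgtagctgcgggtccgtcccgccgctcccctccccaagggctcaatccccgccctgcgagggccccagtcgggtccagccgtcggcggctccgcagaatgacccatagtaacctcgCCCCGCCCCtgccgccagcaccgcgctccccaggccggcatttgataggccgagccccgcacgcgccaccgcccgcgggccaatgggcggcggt
Cpt1a: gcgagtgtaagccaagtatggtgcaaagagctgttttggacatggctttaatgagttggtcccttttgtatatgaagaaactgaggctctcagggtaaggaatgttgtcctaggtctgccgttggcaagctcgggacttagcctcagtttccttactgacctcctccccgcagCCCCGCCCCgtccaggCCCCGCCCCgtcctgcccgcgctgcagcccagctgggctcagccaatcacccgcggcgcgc
Acsl6: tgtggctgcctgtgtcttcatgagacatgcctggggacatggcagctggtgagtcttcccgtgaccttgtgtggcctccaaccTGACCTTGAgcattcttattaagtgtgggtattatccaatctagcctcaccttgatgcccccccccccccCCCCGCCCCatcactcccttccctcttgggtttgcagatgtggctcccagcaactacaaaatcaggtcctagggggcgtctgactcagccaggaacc
Windows were found for 33 of the 39 members, 41 windows in all. The GC box was in a window of 13 of the 33 genes (39.4%) and of 20.6% of the tested genes with a window, and its match in the Acsl6 run, 97 to 89 bases before the start, does not overlap the half-site. The estrogen-related receptor half-site was in 1 member, Acsl6, and in 0.888% of tested genes. The element to which PPAR receptors bind, searched as 2 copies of AGGNCA with 1 base between them, was in 0 of the 41 windows and in 0.212% of the windows of tested genes, which says only that these letters are not in these 250 bases. The Acsl4 run held none of the 3 motifs, and its GC content was 70.8%.

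The carnitine shuttle had a single gene with an adjusted p under 0.05 in either comparison. Cpt1a, the rate-limiting enzyme of entry into mitochondria outside muscle, was at 28.4, 24.4 and 34.6 CPM in Control, 32.0, 33.4 and 37.0 CPM in HFD, and 10.0, 12.2 and 19.8 CPM in HFD+Mino. All HFD+Mino mice lay below all other mice. Its level in HFD+Mino was 2.44-fold below HFD (log2 fold change -1.29 ± 0.28 SE, adjusted p = 0.0123), just outside the threshold of 0.01, while HFD and Control differed by 0.23 with an interval from -0.38 to 0.84. Cpt1b, the muscle paralog, had 0, 0 and 3 counts in Control, 5, 3 and 0 in HFD, and 4, 0 and 4 in HFD+Mino, too few to compare. Cpt1c, the paralog of neurons, which resides in the endoplasmic reticulum and has little transferase activity, was the highest of the shuttle per kilobase. Its level was 93.8, 134 and 164 CPM in Control, 147, 170 and 168 CPM in HFD, and 133, 51.0 and 190 CPM in HFD+Mino. The groups overlapped, and the HFD+Mino mice alone spanned the range of all 9 (log2 fold change -0.37 ± 0.39 SE against HFD, adjusted p = 0.496). Cpt2, which reverses the reaction inside the mitochondrion, and Slc25a20, the carrier between them, were above all HFD mice in all HFD+Mino mice, at 0.26 and 0.58 on the log2 scale, with adjusted p of 0.347 and 0.111. Crat, which moves acetyl groups to and from carnitine, differed by -0.58 (adjusted p = 0.176).

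In mitochondrial beta-oxidation, 10 of 12 genes had a fitted level above HFD in HFD+Mino and 2, Hadha and Hadh, below, where 50.3% of all tested genes were above, and the adjusted p was under 0.05 for Eci1 and Eci2. With the trend of each library on exon length removed, 5 of the 12 were above and the median difference was -0.03. Eci2, an isomerase that moves double bonds of unsaturated fatty acids into place, was at 80.6, 64.0 and 51.6 CPM in Control, 59.7, 53.9 and 56.2 CPM in HFD, and 105, 141 and 66.8 CPM in HFD+Mino (log2 fold change 0.88 ± 0.28 SE against HFD, adjusted p = 0.0385). Each HFD+Mino mouse was above each HFD mouse, but replicate 3 lay within the Control range. Its mitochondrial relative Eci1 was at 40.9 to 47.1 CPM in HFD and 63.5 to 101 CPM in HFD+Mino (0.86 ± 0.27, adjusted p = 0.0375). Echs1, the hydratase of short chains, was at 138, 102 and 68.9 CPM in Control, 75.8, 85.4 and 78.7 CPM in HFD, and 156, 155 and 102 CPM in HFD+Mino (0.78 ± 0.27, adjusted p = 0.0542). The Control mice covered the whole span of HFD for this gene and overlapped HFD+Mino. The acyl-CoA dehydrogenases, which open each round for chains of different length, differed little: Acadvl, Acadl, Acadm and Acads differed between HFD+Mino and HFD by 0.02 to 0.38, and between HFD and Control by -0.37 to -0.09 on the log2 scale. All 12 genes lay within 1.5-fold between HFD and Control, and 10 had an interval within 2-fold. Summed over the 12 genes, the mean CPM was 767 ± 175 (SD, n = 3) for Control mice, 650 ± 17.2 for HFD mice and 860 ± 112 for HFD+Mino mice.

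Hadha and Hadhb encode the alpha and beta subunits of a single complex, the mitochondrial trifunctional protein, and lie head to head on chromosome 5 with 272 bases between their annotated starts. This pair was chosen after its values were seen. Hadha was at 43.6 to 48.4 CPM in Control, 53.5 to 62.0 in HFD and 30.9 to 42.9 in HFD+Mino, and the 3 groups did not overlap (log2 fold change -0.57 ± 0.20 SE for HFD+Mino against HFD, adjusted p = 0.0567). Hadhb was at 81.8 to 156 CPM in Control, 85.4 to 93.6 in HFD and 83.3 to 146 in HFD+Mino, with overlap throughout (0.26 ± 0.29, adjusted p = 0.528). Per kilobase of exon, Hadha over Hadhb was 0.161, 0.219 and 0.296 in Control, 0.324, 0.373 and 0.308 in HFD, and 0.242, 0.110 and 0.267 in HFD+Mino. The ratio was highest in the HFD mice, above every mouse of the other groups. The difference in exon length of these genes, 4017 nt for Hadha and 2080 nt for Hadhb, moves with the library balance described for all members, and its part in the ratio was not tested. The 90 bases next to the start of Hadhb, a part of the shared stretch that lies outside the exons of Hadha in GENCODE as well as in RefSeq, are chr5:30155163-30155252 (GRCm38.p6, plus strand), and hold none of the motifs above.
Hadha-Hadhb: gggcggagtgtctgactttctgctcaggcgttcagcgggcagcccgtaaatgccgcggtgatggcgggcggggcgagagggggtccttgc

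Electron transfer was led by Etfb, which had the highest fitted log2 fold change of the 38 members between HFD+Mino and HFD and did not reach the threshold of 0.01. Its level was 144, 115 and 89.8 CPM in Control, 82.0, 94.4 and 80.2 CPM in HFD, and 282, 225 and 125 CPM in HFD+Mino (log2 fold change 1.30 ± 0.30 SE, adjusted p = 0.0138). All HFD+Mino mice were above all HFD mice, and replicate 3 lay inside the Control range. Etfa and Etfdh, which pass on the same electrons, had differences of 0.57 and 0.33 with adjusted p of 0.128 and 0.311. Between HFD and Control the 3 genes differed by -0.48 to -0.32, and the lowest adjusted p was 0.282.

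Peroxisomal oxidation had no gene with an adjusted p under 0.05 in either comparison. Acaa1a, the peroxisomal thiolase and the highest of this group per kilobase, was at 96.9, 84.3 and 94.1 CPM in Control, 73.9, 76.8 and 79.9 CPM in HFD, and 127, 58.6 and 95.4 CPM in HFD+Mino. HFD lay below Control without overlap, by -0.26 ± 0.26 on the log2 scale (adjusted p = 0.615), and HFD+Mino spread over both. Acox3 and Hsd17b4, which act on branched chains, were below HFD in all HFD+Mino mice, by -0.63 (adjusted p = 0.0717) and -0.57 (adjusted p = 0.0649). Ehhadh, the bifunctional enzyme of peroxisomes and a classic PPAR target in liver, was at 7.01 to 8.99 CPM in Control and 5.77 to 8.03 CPM in HFD, and at 0.822, 2.12 and 6.34 CPM in HFD+Mino. Replicate 3 was in the range of HFD for this gene, and without it the difference from HFD was -2.15 (adjusted p = 0.00422).

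Uptake genes were not called in any comparison of all 9 mice. Slc27a1, a fatty acid transport protein and the highest of this group per kilobase, was at 151, 127 and 130 CPM in Control, 187, 175 and 172 CPM in HFD, and 103, 46.1 and 159 CPM in HFD+Mino. Every HFD mouse was above every other mouse, with a log2 fold change of 0.39 ± 0.35 SE from Control (adjusted p = 0.565) and -0.79 ± 0.35 for HFD+Mino against HFD (adjusted p = 0.113). Without HFD+Mino replicate 3 the latter was -1.25 and was called (adjusted p = 0.00928). Slc27a4, a transport protein of the same family, showed the same order, with -0.82 between HFD+Mino and HFD (adjusted p = 0.0850). Cd36, a scavenger receptor for long chain fatty acids, and Lpl, the lipase that frees fatty acids from lipoproteins, overlapped between all groups. Cd36 ran from 2.04 to 8.30 CPM in Control, 4.51 to 18.3 in HFD and 2.98 to 14.3 in HFD+Mino, and Lpl from 1.64 to 11.4 CPM over all mice.

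The PPAR regulators were at a few CPM or less, apart from Ppargc1a. Ppara, the receptor that drives fatty acid oxidation in liver, was at 2.04, 1.83 and 1.5 CPM in Control, 5.57, 2.46 and 3.14 CPM in HFD, and 1.40, 0.817 and 1.04 CPM in HFD+Mino. The HFD mice were above and the HFD+Mino mice below the Control mice, without overlap. The log2 fold change was 1.05 ± 0.44 SE for HFD against Control (adjusted p = 0.210) and -1.77 ± 0.46 for HFD+Mino against HFD (adjusted p = 0.0193). It rests on 22 to 126 counts per library. Ppard, a receptor found in most tissues, was at 1.42, 0.734 and 0.972 CPM in Control, 0.301, 0.319 and 0.647 CPM in HFD, and 1.09, 0.557 and 0.983 CPM in HFD+Mino. HFD was below Control without overlap (-1.28 ± 0.62, adjusted p = 0.279) and rested on 6 to 26 counts. Pparg, the receptor of fat cell differentiation, was at 1.17, 0.678 and 0.559 CPM in Control, 0.452, 0.0580 and 0.0996 CPM in HFD, and 0.513, 0.111 and 0.437 CPM in HFD+Mino. With 2 to 9 counts in HFD its difference had a wide error (-2.06 ± 0.93, adjusted p = 0.240).

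Ppargc1a, a coactivator of these receptors and of mitochondrial genes, stood far above the receptors. It was at 56.8, 35.8 and 39.8 CPM in Control, 27.9, 25.8 and 31.7 CPM in HFD, and 15.2, 25.6 and 20.8 CPM in HFD+Mino. The 3 groups did not overlap. HFD differed from Control by -0.63 ± 0.26 on the log2 scale (adjusted p = 0.204), HFD+Mino from HFD by -0.47 ± 0.26 (adjusted p = 0.196) and HFD+Mino from Control by -1.11 ± 0.27 (adjusted p = 0.132), and none passed with edgeR. DESeq2 called the difference between HFD+Mino and Control (-1.10, adjusted p = 0.00864). With the trend on exon length removed, HFD differed from Control by -1.16 (adjusted p = 0.0263) and HFD+Mino from HFD by 0.21 (adjusted p = 0.647).

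Ketone use was measured by its enzymes of the mitochondrion. Oxct1, which commits ketone bodies to oxidation and is high in brain and absent from liver, was at 286, 227 and 192 CPM in Control, 258, 295 and 294 CPM in HFD, and 222, 198 and 224 CPM in HFD+Mino. HFD+Mino was below HFD without overlap (log2 fold change -0.40 ± 0.21 SE, adjusted p = 0.171), and Control overlapped both. Bdh1, which turns hydroxybutyrate into acetoacetate, was at 73.2, 60.7 and 58.5 CPM in Control, 44.7, 45.8 and 40.2 CPM in HFD, and 83.5, 48.3 and 73.0 CPM in HFD+Mino. HFD was the lowest group without overlap, by -0.56 ± 0.23 from Control (adjusted p = 0.207) and with HFD+Mino above it by 0.65 ± 0.23 (adjusted p = 0.0600). Neither gene passed the test. With the trend on exon length removed both had a fitted level above HFD in HFD+Mino, Oxct1 by 0.0077 and Bdh1 by 0.99 (adjusted p = 0.0198).

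**Figure D3:**
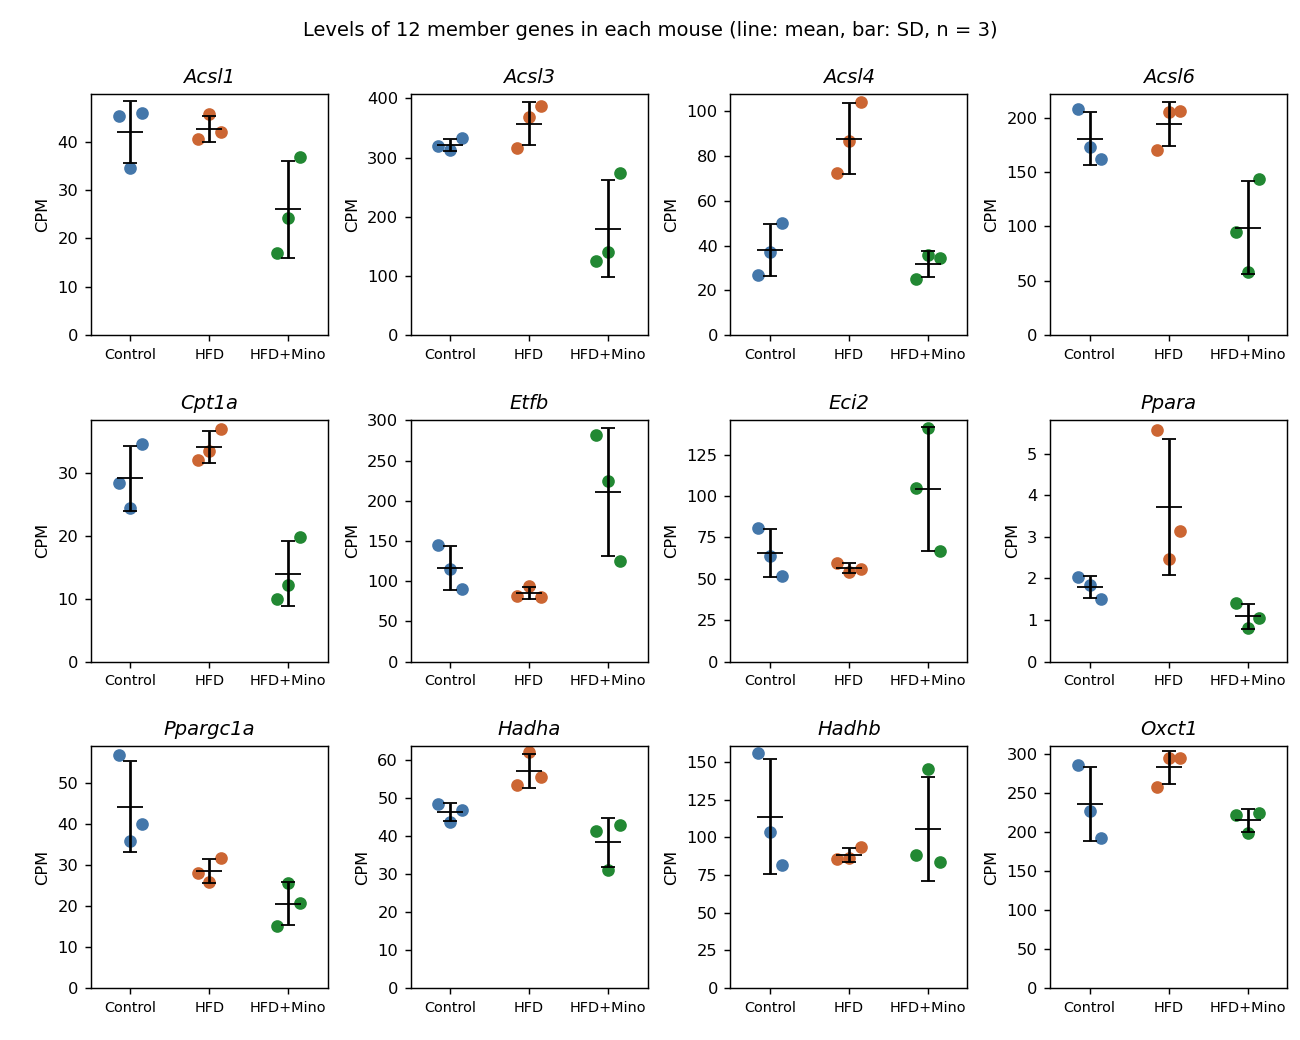
CPM of 12 member genes in each mouse, by group; points are mice, the line is the mean and the bar the SD (n = 3), and each axis starts at 0. Acsl4 is highest in the 3 HFD mice, from 72.3 to 104 CPM, while Acsl1, Acsl3, Acsl6 and Cpt1a are lower in the HFD+Mino mice than in all HFD mice, and Etfb and Eci2 are higher.

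Complete separation of groups was counted over all members. Between HFD and Control, 5 members had all HFD mice above all Control mice (13.2%) and 9 all below (23.7%), where 19.7% and 16.0% of all tested genes did. Between HFD+Mino and HFD, 11 were all above (28.9%) and 13 all below (34.2%), against 23.3% and 23.5% of all tested genes. Between HFD+Mino and Control, 0 were all above and 10 all below (26.3%), against 8.93% and 10.1%. HFD mice were more alike than the mice of the other groups for several roles: the SD of the summed CPM of mitochondrial beta-oxidation was 17.2 in HFD, 175 in Control and 112 in HFD+Mino. For activation to acyl-CoA it was 72.2 in HFD and 22.4 in Control. The likeness was not particular to the members. Over genes of the whole table, chi-square per degree of freedom between mice of a group was 22 to 32.9 in HFD, 97.3 to 308 in Control and 114 to 337 in HFD+Mino.

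**Figure D4:**
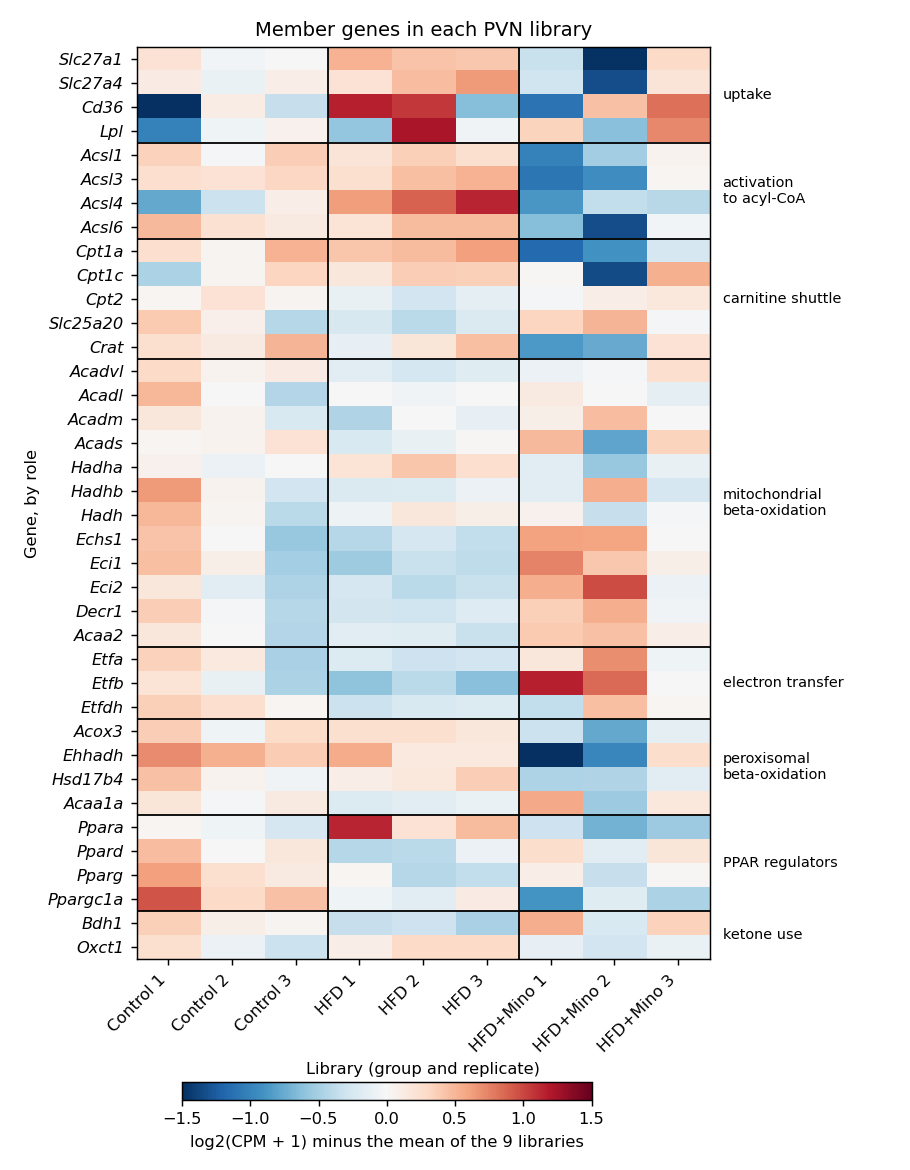
The 38 tested members (rows, grouped by role) in the 9 libraries (columns), as log2(CPM + 1) minus the mean of the gene over the libraries; red is above and blue below that mean. The 4 Acsl genes and Cpt1a are blue in HFD+Mino replicates 1 and 2, several genes of mitochondrial beta-oxidation and Etfb are red there, and replicate 3 is paler.

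The direction of the fitted differences varied with exon length, in these genes as in the whole table. Among the 11 tested members with under 2000 nt of exon, 0 had a fitted level above Control in HFD and 10 had one above HFD in HFD+Mino, where 27.7% and 88.7% of all tested genes of that length did. Of the 9 members over 4000 nt, 8 were above Control in HFD and 0 above HFD in HFD+Mino, against 74.1% and 22.0%. As a description across genes, Spearman's rho of log2 fold change with exon length was 0.47 over the 38 members and 0.39 over 15626 genes for HFD against Control, and -0.71 and -0.59 for HFD+Mino against HFD. These points share their libraries and are no replicates. The Acsl genes have 3950 to 6286 nt of exon and Cpt1a 4317 nt, whereas Etfb has 893 nt, Eci1 1137 nt and Eci2 1747 nt.

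The libraries themselves differed in this balance. The median log2 level of genes over 4000 nt minus that of genes under 2000 nt, relative to the mean of the libraries, was -0.28, -0.08 and 0.43 in Control, 0.64, 0.53 and 0.71 in HFD, and -0.98, -0.73 and -0.18 in HFD+Mino. With the trend of each library on exon length removed, 0 members were called between HFD+Mino and HFD. Acsl4 then differed by -0.79 (adjusted p = 0.0275) and Cpt1a by -0.75 (adjusted p = 0.0346), Acsl3 by -0.54 and Acsl6 by -0.29, and Etfb by 0.14 (adjusted p = 0.557). Of the 12 beta-oxidation genes 5 were then above HFD in HFD+Mino. Between HFD and Control, Acsl4 differed by 0.84 with the trend removed (adjusted p = 0.0292). The group and the length balance move together in these libraries, and their parts in the differences cannot be told apart.

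**Figure D5:**
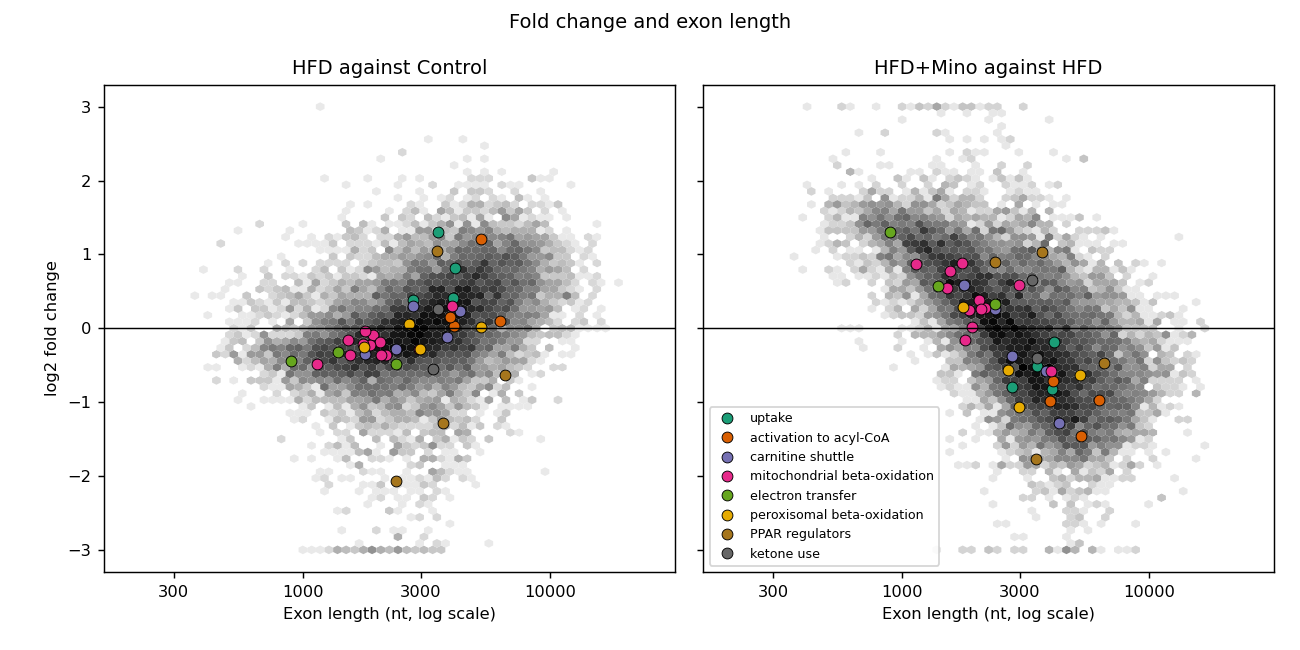
Fitted log2 fold change against exon length on a log axis for HFD against Control and for HFD+Mino against HFD; grey shading is the density of all tested genes with values beyond 3 drawn at 3, and coloured points are the 38 members by role. Members under 2000 nt lie at or below 0 on the left and, but for 1, above 0 on the right, and those over 4000 nt lie mostly above and then all below 0.

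Other genes of the pathway were taken from a list of 71 that completes the members, of which 67 were tested. Between HFD and Control 1 was called, Mlycd, which encodes malonyl-CoA decarboxylase, the enzyme that removes the inhibitor of Cpt1. Mlycd was at 51.8, 45.5 and 53.5 CPM in Control, 7.93, 15.1 and 13.7 CPM in HFD, and 26.8, 28.4 and 59.9 CPM in HFD+Mino. It fell in HFD without overlap (log2 fold change -2.04 ± 0.35 SE, adjusted p = 0.00786). HFD+Mino was above HFD in all mice (1.65 ± 0.35, adjusted p = 0.0116) and overlapped Control. The call was lost without any of the Control or HFD mice and without HFD+Mino replicate 1, and it was kept with the length trend removed. Acaca, which makes malonyl-CoA, was at 11.3 to 15.5 CPM in Control and 27.8 to 32.1 CPM in HFD, without overlap and with an adjusted p of 0.0315 (log2 fold change 1.19 ± 0.28). In HFD+Mino it was at 13.8 to 26.0 CPM. Acaca has 9026 nt of exon, and of all tested genes over 4000 nt 74.1% were above Control in HFD. It was called by DESeq2 and without HFD+Mino replicate 3. Acacb, the paralog of Acaca, was at 3.33 to 8.68 CPM in Control and 7.82 to 13.05 CPM in HFD, with overlap (0.63 ± 0.41, adjusted p = 0.416). Acaca, Acacb and the genes of the next paragraph were chosen after their values were seen.

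Between HFD+Mino and HFD, 0 of the 67 genes were called at the main thresholds, while 33 (49.3%) had an unadjusted p under 0.05, against 41.3% of all tested genes. DESeq2 called 15, with 23.0% of all tested genes, and the block 21, with 25.6%. Of the 67, at an FDR under 0.05, 11 were higher and 8 lower (27.5% of all tested genes in both directions). The higher ones included the short transcripts of the fatty acid binding proteins Fabp3 and Fabp5 and of Dbi, the acyl-CoA binding protein. The lower ones included Ppargc1b, a coactivator related to Ppargc1a, and Abcd2, a peroxisomal transporter. Plin2, which coats lipid droplets, was at 15.3 to 18.9 CPM in HFD and 17.9 to 52.8 CPM in HFD+Mino, with overlap (1.10 ± 0.34, adjusted p = 0.0337).

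Markers of the cell types that could carry these genes were measured beside them. For astrocytes the 9 markers summed to 5228 to 7559 CPM in Control, 5596 to 6645 in HFD and 5161 to 6493 in HFD+Mino, and 0 were called in either comparison. At an FDR under 0.05, 3 of the 9 were lower in HFD+Mino than in HFD, where 14.6% of all tested genes were higher and 12.9% lower. These were Aqp4 (log2 fold change -1.28, adjusted p = 0.0118), Aldh1l1 (-1.19, adjusted p = 0.0174) and Gja1 (-0.94, adjusted p = 0.0283). Gfap and Slc1a3 were lower without passing. Going the other way, Aldoc, the most abundant of the 9, Slc1a2 and Agt differed by 0.13 to 0.15, and S100b by 1.15 (adjusted p = 0.0634). The 8 neuron markers summed to 5077 to 7770 CPM in Control, 3793 to 5889 in HFD and 4378 to 5027 in HFD+Mino. Of these, Syt1 (-1.44, adjusted p = 0.0127) and Rbfox3 (-1.20, adjusted p = 0.0277) were lower in HFD+Mino than in HFD at that FDR. Gad1, Slc32a1 and Slc17a6 were lower without passing, while Stmn2 differed by 0.75, Snap25 by 0.19 and Tubb3 by 0.08. Ependyma and tanycyte markers, 5 in number, summed to 14.95 to 129 CPM in Control, 138 to 247 in HFD and 284 to 619 in HFD+Mino, so that the groups did not overlap, and 0 were called. At an FDR under 0.05, 1 of the 5, Rarres2, was higher in HFD+Mino than in HFD (1.65, adjusted p = 0.0267). Foxj1 went the other way (-0.53, adjusted p = 0.449). Ccdc153, Tmem212 and Rax differed by 1.11, 1.64 and 0.87 without passing, and Rax was at most 1.15 CPM in any library. Microglia, with 10 markers from 334 to 551 CPM in Control, 429 to 458 in HFD and 517 to 635 in HFD+Mino, also had 0 called, and at an FDR under 0.05 4 were higher and 1 lower in HFD+Mino than in HFD. Oligodendrocyte precursors, with 4 markers, summed to 186 to 332 CPM in Control, 283 to 358 in HFD and 103 to 186 in HFD+Mino. Of these, Cspg4 rose in HFD, and Cspg4 and Gpr17 fell in HFD+Mino against HFD, at the main thresholds. Pdgfra was lower in HFD+Mino than in HFD at an FDR under 0.05 (-1.08, adjusted p = 0.0196), and Olig1 was lower without passing (-1.03). Between HFD and Control, Gpr17 was higher at that FDR (1.63, adjusted p = 0.0122), while Pdgfra differed by 0.67 and Olig1 by 0.08 without passing. At an FDR under 0.05 in HFD+Mino against HFD, 1 of 8 endothelial markers was higher (Ly6c1) and 2 were lower (Kdr and Flt1). Of 6 mural markers 2 were higher (Vtn and Rgs5) and 1 was lower (Pdgfrb). Kdr and Pdgfrb also passed the main thresholds. The endothelial and mural sums ran from 174 to 218 and 69.7 to 97.2 CPM in HFD and from 171 to 427 and 109 to 262 CPM in HFD+Mino. The part of these cells in the levels of the members was not tested. The 5 adipocyte markers summed to at most 2.26 CPM in any library, so that adipose RNA was near 0.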

How the data were processed

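PVN RNA was amplified with a low-input SMARTer kit and sequenced as paired reads. The authors aligned the reads to mm10 with HISAT2, counted them per gene with featureCounts and deposited raw counts, 1 column per mouse; the versions, and whether counting used strand, are not given in the sources used here. The deposited counts number the HFD mice otherwise than the sample titles, and columns were matched by the sample descriptions, which carry the column names; 0 columns had no sample. Rows without a symbol, 958 in all, held 0.0785% to 0.0932% of the counts.

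The quasi-likelihood test of edgeR 4.0.16 (filterByExpr, TMM, group means, R 4.3.3) was fitted to all 9 samples. A call needed a Benjamini-Hochberg FDR under 0.01 and a 1.5-fold difference, and in the 3-way test HFD had to be the highest or lowest group, 1.5-fold from the mean of the log2 values. Every adjusted p comes from this tool unless DESeq2 is named. DESeq2 1.42.0, other scalings and filters, trends on exon length and GC, a replicate block and the removal of each sample were the alternatives, and the scripts were tested on simulated data. The members, lists and tests were chosen with earlier results of these data known. In the marker and pathway lists Mmut was read under its older symbol Mut, and Hbb-bt had no row. Values were given in full for called members, those of the lowest 3-way p up to 8, the highest per kilobase of each role, and the Cpt1, PPAR and ketone genes. Replicates were separate mice.

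Same-numbered Control and HFD+Mino samples deviated together (r = 0.135, 0.163 and 0.292), while differently numbered ones gave -0.162 to 0.0255. The block was therefore fitted to these groups as an alternative, from the counts alone, and no label says that the numbers mark pairs. Same-numbered samples gave -0.133 to -0.00624 for Control with HFD and -0.152 to -0.0522 for HFD with HFD+Mino. Differently numbered samples of those groups reached 0.167 and 0.114, so an r of 0.135 or 0.163 alone does not mark a pair. Promoters and gene positions came from RefSeq (GRCm38.p6), with windows of 250 bases.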

Additional observations from a re-analysis of the deposited data

How the results depend on the processing

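Depth limited Ppard, Pparg and Cpt1b, and 3 mice a group limited every test. Members called numbered 0 in the 3-way test, 0 for HFD against Control, 1 for HFD+Mino against HFD and 0 for HFD+Mino against Control. They numbered 3, 1, 5 and 1 with DESeq2; 1, 0, 3 and 0 with no filter; 1, 0, 1 and 0 at a mean count of at least 50; 4, 1, 8 and 0 at an FDR under 0.05; 1, 1, 3 and 0 with a replicate block in all groups; 1, 1, 8 and 1 with the replicate block in Control and HFD+Mino; and 0, 0, 0 and 0 with the exon length trend removed. Between HFD+Mino and HFD the share of all tested genes called, 4.15% at first, was 23.0%, 7.61%, 6.76%, 27.5%, 7.89%, 25.6% and 2.72% under these settings in turn, and between HFD and Control, 1.74% at first, it was 6.91%, 1.92%, 2.55%, 5.77%, 1.64%, 6.22% and 2.78%. In the 3-way test it was 2.13% and then 13.6%, 5.19%, 3.01%, 18.4%, 2.81%, 13.2% and 2.25%. The other pathway genes, 1 between HFD and Control and 0 between HFD+Mino and HFD, became 2 and 15 with DESeq2, 1 and 8 with no filter, 1 and 1 at a mean count of at least 50, 2 and 19 at an FDR under 0.05, 1 and 2 and then 1 and 21 with those blocks, 2 and 2 with the GC trend removed (1.44% and 5.14% of all tested genes), and 2 and 0 in fits of 6 samples (3.67% and 2.43%). Leaving out each sample gave 0 to 3, 0 to 0, 0 to 10 and 0 to 5 members, and 0 to 2 and 0 to 18 other pathway genes; the highest counts came without HFD+Mino replicate 3, where 21.4% of all tested genes were called between HFD+Mino and HFD, against 0.162% to 5.27% without any other sample. With the exon length trend removed, the log2 fold change between HFD+Mino and HFD turned to 0.21 for Ppargc1a, -0.24 for Acaa1a and 0.0077 for Oxct1, and between HFD and Control to -0.013 for Acsl3, -0.40 for Acsl6 and 0.060 for Eci2. With the GC trend removed it was -0.044 for Acsl3 and -0.051 for Acsl6 between HFD and Control. Cpt1c between HFD+Mino and HFD ran from -0.81 to 0.00087 over the removal of each sample, and turned without HFD+Mino replicate 2. None of these genes was called in those comparisons, and the cause was not tested. Of the other single-gene values, 315 kept direction and side of the threshold, 24 passed it and 1 no longer did; over the removal of each sample these were 275, 6 and 6.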
